A study of Strongylocentrotus purpuratus and Patiria miniata with 4 samples.

Results

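In embryos of the purple sea urchin Strongylocentrotus purpuratus, 627 of 3149 peaks of Tbrain (Tbr) binding, or 19.9%, had their nearest other summit more than 1000 bp and at most 5000 bp away on the same scaffold. These loosely spaced peaks were chosen by the positions of the summits, the base of highest enrichment in each peak, and by no other value. The other sea urchin peaks were 592 with a summit within 1000 bp and 1930 with none within 5000 bp. Of the 1930, called widely spaced below, 621 were the only peak of their scaffold and so have no measured distance. The other 1309 shared their scaffold with further peaks. Both species of the series together gave 17126 peaks.

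The study mapped Tbr along the genome by ChIP-seq, the sequencing of DNA recovered with an antibody to a chromatin protein, in the sea urchin and in a sea star, Patiria miniata. The sea urchin samples were 1 library immunoprecipitated with a custom antibody to the sea urchin protein and 1 input library made without antibody, both of embryos at mesenchyme blastula, 24 hours post fertilization (hpf). The sea star samples were 1 library made with a custom antibody to the sea star protein and 1 input library, both of embryos at hatched blastula, 30 hpf. Each immunoprecipitation took chromatin pooled from 2 to 3 cultures fertilized separately, so there is no biological replicate, and all comparisons below are descriptions without a test. No genotype or treatment other than culture at 15 °C is given by the labels. Whole embryos were used, so binding in few cells and weaker binding in many cells cannot be told apart.

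Tbr belongs to the T-box family, whose members bind DNA through a conserved domain, the T domain. In sea urchin embryos tbr is active in the skeletogenic mesenchyme, the cells that enter the blastocoel at mesenchyme blastula and later build the larval skeleton, and it belongs to the gene regulatory network of that lineage. The regulatory DNA of a sea urchin gene is commonly made of several separate cis-regulatory modules spread over kilobases. Summits some kilobases apart can therefore lie in modules of 1 gene or of neighbouring genes. No genome of the build used by the authors was used here, so genes, motifs and sequences under the peaks are not given.

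For each peak, 3 values are used. The ChIP fragments are the number of immunoprecipitated fragments over the summit as counted by the peak caller, computed back from its deposited values. The scaled input is the background expected there from the input library, on the scale of the ChIP library. The fold enrichment is the ratio of these, each raised by 1 fragment. The genome-wide mean was 1.51 fragments, which corresponds to 15.8 ChIP reads per kb. A peak with 22 fragments, the median of the loosely spaced peaks, has an exact Poisson 95% interval of 13.8 to 33.3. The quartiles of these peaks were 18 and 26 fragments. Whether their spread exceeds counting error was not tested.

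Short distances within the range were the most frequent. The median distance to the nearest summit was 1961 bp, with quartiles of 1460 and 3096 bp. Of the 627 peaks, 316 (50.4%) had their nearest summit at over 1000 and up to 2000 bp. A further 144 had it at up to 3000 bp, 97 at up to 4000 bp and 70 at up to 5000 bp. The decline was not even, since the last 500 bp of the range held 48 peaks, the 500 bp before it 22 and those before that 46. At 458 of the 627 peaks (73.0%), the nearest summit had the same peak as its own nearest. Such a distance enters for both of its peaks, so these are counts of peaks and not of separate gaps. The peaks just inside the lower limit were on Scaffold114 at 328350 to 328461 and on Scaffold68 at 606008 to 606103, each with a summit 1001 bp away, and had 20 and 22 ChIP fragments. Just outside it, 2 peaks on Scaffold1353, at 144597 to 144795 and 145688 to 145823, lay 1000 bp from each other and had 21 and 23 fragments. Just inside the upper limit, 2 peaks on Scaffold13, at 217839 to 218150 and 222852 to 223184, lay 4994 bp apart, with 17 and 20 fragments. Just outside it, Scaffold1386 at 87244 to 87412 and Scaffold281 at 391773 to 392144 had their nearest summits 5036 and 5042 bp away, with 15 and 24 fragments. The Poisson intervals of the peaks on either side of a limit overlap. With 2 peaks a side and intervals this broad, a difference at a limit could not be shown.

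**Figure D1:**
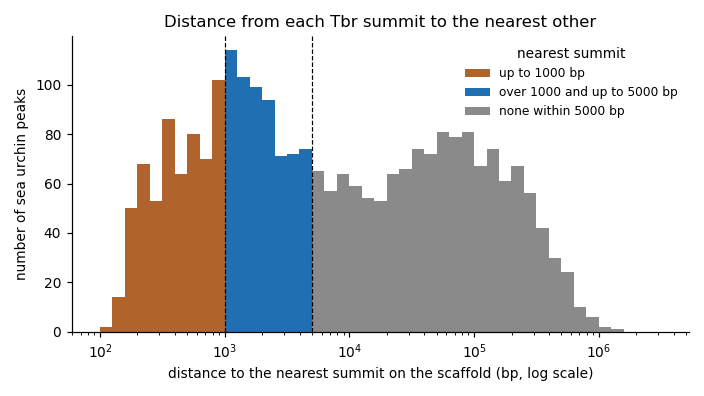
The number of sea urchin peaks by distance to the nearest summit on the same scaffold, in bp on a log scale, for the 3 groups of spacing. The 621 peaks alone on their scaffold have no such distance and are not drawn. The dashed lines mark 1000 and 5000 bp, and the 627 peaks between them run on from both sides without a gap at either limit.

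Loosely spaced peaks were covered by more ChIP fragments and were wider than peaks with no summit within 5000 bp, but their fold enrichment was alike. The median peak had 22 fragments at its summit (95% order-statistic interval 22 to 23 over peaks, n = 627), against 18 (18 to 19, n = 1930) where no summit lay within 5000 bp. The scaled input was higher as well, with a median of 4.57 fragments against 3.43. Relative to the genome-wide mean these were 3.02 and 2.27 times. The median fold enrichment was 4.07 (3.95 to 4.20) and 4.15 (4.08 to 4.21). Fragments and input were thus both higher at the loosely spaced peaks, while their ratio was not. Among the 1930, the median was 19 fragments (18 to 19) for the 1309 with other peaks on the scaffold. It was 17 (17 to 18) for the 621 alone on theirs. The median scaled inputs of these 2 sets were 3.51 and 3.43, and the fold enrichments 4.11 and 4.26. The 592 peaks with a summit within 1000 bp had a median of 22 fragments (22 to 23), a scaled input of 4.57 and a fold enrichment of 4.21 (4.12 to 4.38). Peaks are not replicates, and the intervals describe 1 library only.

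Of the 627 loosely spaced peaks, 140 (22.3%) had a fold enrichment of at least 5, where 24.2% of all 3149 sea urchin peaks had one. A −log10 q of 10 or more was reached by 67 of them, or 10.7%, where 8.76% of all peaks did. The same peak call supplied both the distances and these values, so the shares are given side by side only. The median −log10 q was 4.95 at loosely spaced peaks, 4.11 at peaks with no summit within 5000 bp and 5.15 at peaks with one within 1000 bp.

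**Figure D2:**
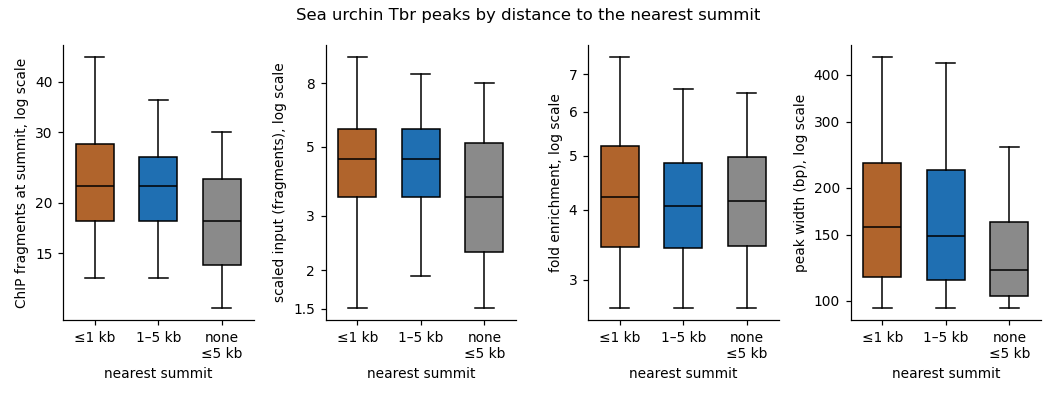
ChIP fragments at the summit, scaled input in fragments, fold enrichment and peak width in bp, each on a log scale, for peaks with the nearest summit within 1 kb (n = 592), at 1 to 5 kb (n = 627) and with none within 5 kb (n = 1930). Boxes span the quartiles with the median as a line, and whiskers reach the 5th and 95th percentiles. Fragments, input and width were lower in the last of these, and fold enrichment was near 4 in each.

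Loosely spaced peaks were wider than widely spaced ones also where the number of fragments was alike. Over all of them the median width was 149 bp (141 to 161), against 121 bp (118 to 123) with no summit within 5000 bp and 157.5 bp (150 to 168) with a summit within 1000 bp. Widely spaced peaks had a median of 123 bp (120 to 125) where the scaffold held other peaks. Those alone on their scaffold had 117 bp (114 to 122). The shortest width in the list, 96 bp, was taken as the fragment length of the peak caller. It was found at 37 loosely spaced peaks (5.90%) and at 288 of the 1930 widely spaced peaks (14.9%). Widths of 300 bp or more were found at 83 of 627 (13.2%), at 56 of the 1930 (2.90%), at 82 of the 592 peaks with a summit within 1000 bp (13.9%) and at 7.02% of all 3149 peaks. Peaks with more fragments are wider, so widths were also set side by side at like numbers of fragments. At 20 to 24 fragments the median width was 152 bp (140 to 166, n = 216) for loosely spaced peaks and 128 bp (123 to 135, n = 500) for widely spaced ones. At 25 to 29 fragments it was 186 bp (162 to 219, n = 133) and 136 bp (128 to 152, n = 203). At 30 or more it was 229 bp (183 to 328, n = 80) and 136.5 bp (124 to 154, n = 122). This last range has no upper limit, so fragment numbers may differ within it. Its median fold enrichments were 4.66 and 4.05, and its median scaled inputs 6.57 and 7.43 fragments. Of its 122 widely spaced peaks, the 75 with other peaks on the scaffold had 153 bp (128 to 183). The 47 alone on their scaffold had 124 bp (109 to 146). The interval of the 75 thus meets that of the loosely spaced peaks at 183 bp. At 20 to 24 and 25 to 29 fragments, widely spaced peaks with others on the scaffold had medians of 129 and 137 bp. At 14 or fewer the medians of loosely and widely spaced peaks were 123 bp (114 to 133) and 112 bp (110 to 114). At 15 to 19 they were 129 bp (122 to 143) and 119 bp (115 to 124). Below 20 fragments the intervals thus met or overlapped. The loosely spaced peaks thus had the larger median in each range, by little below 20 fragments and by more above. Peaks with a summit within 1000 bp had like widths to the loosely spaced ones, 147 bp at 20 to 24 fragments, 195 bp at 25 to 29 and 230 bp at 30 or more.

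**Figure D3:**
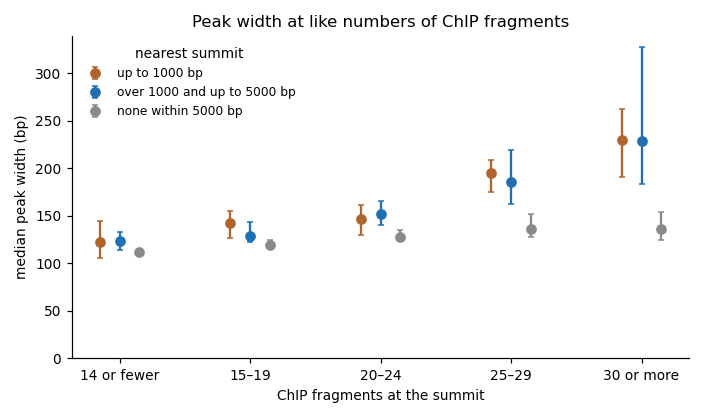
Median peak width in bp by the number of ChIP fragments at the summit, for the 3 groups of spacing. Bars are 95% order-statistic intervals over peaks. At 25 to 29 fragments the median was 186 bp for peaks with the nearest summit at 1 to 5 kb and 136 bp for peaks with none within 5 kb.

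Within the range, fold enrichment did not follow the distance. Its median was 4.13 for the 316 peaks at up to 2000 bp, 3.99 for the 144 at up to 3000 bp, 3.95 for the 97 at up to 4000 bp and 4.16 for the 70 at up to 5000 bp. The median number of fragments ran between 21 and 23 over the same ranges. The median width was 153.5 bp, 158 bp, 143 bp and 135.5 bp in that order.

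The background at these peaks came mostly from input reads at the summit itself. The peak caller takes as background the highest of the genome-wide mean and the input in windows of 1 fragment, 1 kb and 10 kb around the summit. At 474 of the 627 loosely spaced peaks (75.6%) the window of 1 fragment gave the highest value, against 1291 of 1930 (66.9%) widely spaced peaks and 383 of 592 (64.7%) with a summit within 1000 bp. At those 474 peaks the median was 9 input reads, with an exact Poisson 95% interval of 4.12 to 17.1, so the denominator of a fold enrichment rests on few reads. The window of 1 kb was highest at 108 loosely spaced peaks and that of 10 kb at 27. No window exceeded the genome-wide mean at 18 of 627 (2.87%), against 112 of 1930 (5.80%) and 50 of the 592 with a summit within 1000 bp (8.45%). Of the 112, 63 were among the 621 peaks alone on their scaffold (10.1%) and 49 among the other 1309 (3.74%).

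Most loosely spaced peaks belonged to short groups. Summits were joined into a group where neighbours lay at most 5000 bp apart, which gave 293 groups with at least 1 loosely spaced peak, on 221 of the 1199 scaffolds with a peak. Of these groups, 164 (56.0%) had 2 summits, 61 had 3 and 68 had 4 or more. In 199 groups, with 444 of the 627 peaks, every summit was loosely spaced. The other 94 groups held 183 loosely spaced peaks beside 302 summits with a neighbour within 1000 bp. The median group spanned 3253 bp from its first to its last summit, and the longest, on Scaffold5086, spanned 18775 bp with 20 summits. A summit within 5000 bp on both sides was found for 119 of the 627 peaks (18.98%).

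Loosely spaced peaks in larger groups had more fragments and were wider. The median was 21 fragments (20 to 22) and a width of 141 bp (130 to 150) for the 328 peaks in groups of 2. It was 22 fragments (21 to 23) and 148 bp (130 to 176) for the 115 in groups of 3. It was 24 fragments (23 to 25) and 185.5 bp (162 to 205) for the 184 in groups of 4 or more. The median fold enrichments were 3.99, 4.13 and 4.23, with intervals that overlap. A −log10 q of 10 or more was reached by 23 of 328 (7.01%), 13 of 115 (11.3%) and 31 of 184 (16.8%), where 8.76% of all sea urchin peaks reached it. In the 94 mixed groups, the loosely spaced peaks and the closer summits beside them had the same median of 24 fragments, and widths of 165 and 165.5 bp.

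The 3 groups with most loosely spaced peaks lay on Scaffold605, Scaffold92 and Scaffold54. On Scaffold605, 7 of 9 summits were loosely spaced along 15450 bp. Going along the scaffold from 267864, the 7 had 18, 13, 20, 16, 14, 17 and 19 ChIP fragments. Their scaled inputs were 1.60, 2.29, 2.86, 4.57, 2.58, 3.43 and 2.69 fragments. The Poisson intervals of the 7 ChIP counts overlap. The last 5 summits of this group, from 277544 to 283314, followed at steps of 1557, 1500, 1421 and 1292 bp. The 2 closer summits, at 270991 and 271924, had 31 and 30 fragments, the highest of the group.

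On Scaffold92, 6 of 11 summits were loosely spaced, placed on either side of 5 summits closer together. The 2 before them, at 296936 and 297952, had 26 and 24 fragments over scaled inputs of 6.86 and 6.29. The 4 after them, from 302485 to 311349, had 15, 19, 27 and 31 fragments over 4.0, 5.15, 8.00 and 4.0. The 5 closer summits between had 20 to 38 fragments, and the highest fold enrichment of the group, 7.80, was at 300798 among them. Of the loosely spaced peaks of this group, the one at 311349 had the highest fold enrichment, 6.4.

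On Scaffold54, all 6 summits of the group were loosely spaced, and it was the longest group of that kind, 10320 bp. From 1097932 to 1108252 the summits had 21, 23, 29, 22, 23 and 25 fragments over scaled inputs of 3.43, 4.01, 4.0, 3.02, 6.29 and 5.15. The steps between them ran from 1247 to 2656 bp. The fold enrichment was highest at the third summit, 1102173, with 6.0, and lowest at the fifth, 1105596, with 3.29. The fragments of the 6 summits differed by less than their counting intervals.

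**Figure D4:**
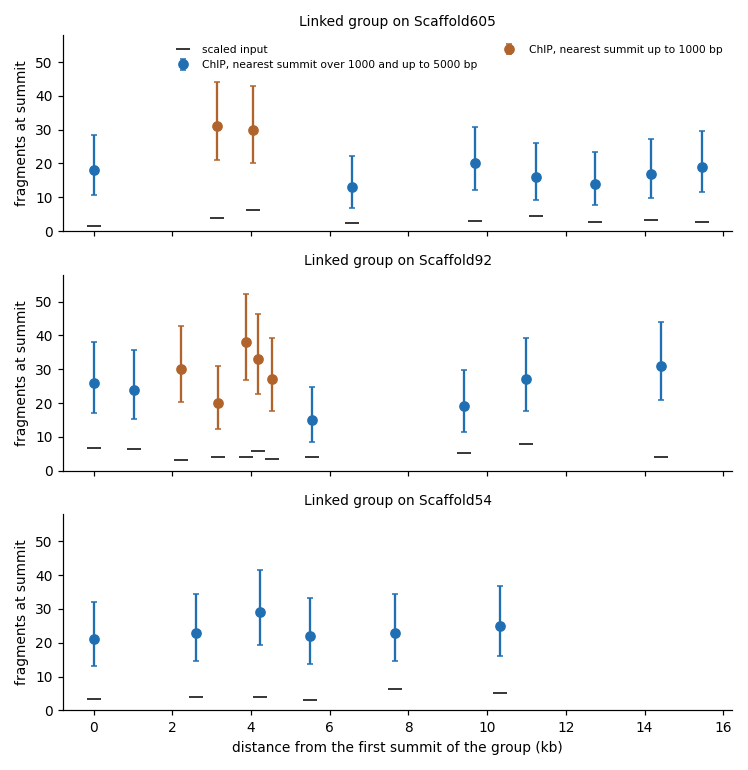
ChIP fragments at each summit against the distance in kb from the first summit of the group, for the 3 linked groups with most loosely spaced peaks. Bars are exact Poisson 95% intervals, colours give the distance to the nearest summit, and short black lines are the scaled input. On Scaffold54 the 6 summits ran from 21 to 29 fragments, and ChIP lies above input throughout since only called peaks are shown.

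Groups made up of 4 or more loosely spaced peaks only were found 8 times, with 35 of the 627 peaks. On Scaffold2385, 5 summits along 8881 bp had 26, 40, 24, 28 and 18 fragments over scaled inputs of 5.15, 12.6, 4.50, 4.57 and 3.43. The summit with 40 fragments, at 22846, had the lowest fold enrichment of the 5, 3.02, and its scaled input was the highest. On Scaffold468, 4 summits from 529154 to 534938 had 22, 33, 46 and 28 fragments over scaled inputs of 5.15, 5.15, 6.86 and 6.86. There the third summit, 533296, had both the most fragments and the highest fold enrichment, 5.98.

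The counting intervals of the 2 summits overlapped in nearly every pair, as they did for neighbours far apart. Overlap of 2 separate intervals is not a test of the difference between the counts, and none was run. In the 164 groups of 2 summits, the higher summit had a median of 1.24 times the fragments of the lower, with quartiles of 1.11 and 1.5. The ratio was 2 or more in 11 pairs. The Poisson intervals of the 2 summits overlapped in 162 of the 164 (98.8%). For 709 pairs of neighbours with no summit within 5000 bp, the intervals overlapped in 691 (97.5%), so the overlap does not set the pairs apart. The median ratio of those neighbours was 1.36, with quartiles of 1.18 and 1.68, and they have fewer fragments. The exceptions were on Scaffold2102, with 23 and 62 fragments at 3295 and 4539, and on Scaffold5505, with 12 and 32 at 1602 and 2610. On Scaffold2102 the scaled inputs were 7.43 and 20.01, and the fold enrichments of 2.85 and 3.00 were alike. On Scaffold5505 the scaled inputs were 2.31 and 6.29, and the fold enrichments 3.93 and 4.53. These pairs were picked after their values were seen.

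**Figure D5:**
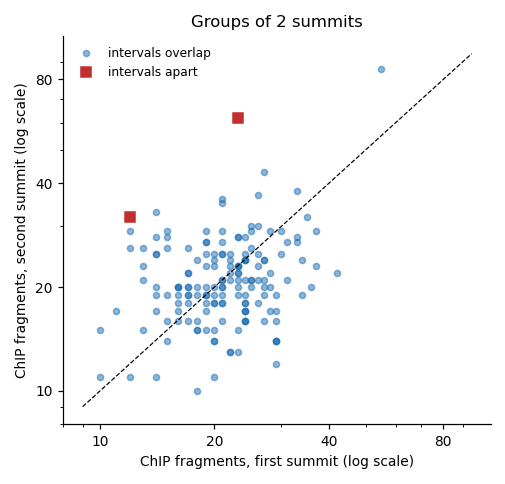
ChIP fragments at the second against the first summit of the 164 groups of 2 summits, both on log scales, in order along the scaffold. The dashed line marks equal numbers, and squares mark the 2 pairs whose Poisson intervals do not overlap.

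Over all 305 neighbouring pairs of loosely spaced peaks, Spearman's rho between the neighbours was 0.24 for ChIP fragments, 0.24 for scaled input, 0.07 for fold enrichment and 0.15 for width. For 334 pairs at most 1000 bp apart it was 0.39 for fragments, 0.53 for scaled input and 0.32 for fold enrichment. Without the 5 scaffolds of the 10 most significant peaks, these 3 values were 0.32, 0.38 and 0.20 (n = 304), and those of the loosely spaced pairs were 0.25, 0.24 and 0.06 (n = 304). For 709 pairs of neighbours with no summit within 5000 bp it was 0.03, 0.06 and −0.02. Neighbours share the library and its depth, and those under 5000 bp apart share part of the 10 kb input window. That window set the background at 27 of the 627 loosely spaced peaks (4.31%), and its part in the likeness was not tested. The likeness between loosely spaced neighbours was weak in fragments, and of like size in scaled input.

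By −log10 q, 5 of the 10 most significant loosely spaced peaks came from Scaffold4538 and Scaffold5086, where no window of input around them exceeded the genome-wide mean. The first by −log10 q was on Scaffold4538 at 12412 to 13073, with 144 fragments (121 to 170) over a background of 1.51, an enrichment of 57.7-fold. Its nearest summit was 1057 bp away. On Scaffold5086 the summit of the peak at 29831 to 30050 was covered by 54 fragments (40.6 to 70.5), at an enrichment of 21.9-fold. Another there, at 59583 to 60006, was covered by 50 (37.1 to 65.9), at 20.3-fold. The peaks at 52489 to 55021 and at 9808 to 12533 had 33 and 26 fragments and fold enrichments of 13.5 and 10.7. At these 5 peaks the scaled input was 1.51, and they were also the 5 highest by fold enrichment. The other five of the 10 highest by −log10 q were on Scaffold518, Scaffold1117, Scaffold468, Scaffold770 and Scaffold36. The peak on Scaffold518 at 505430 to 506011 had 123 fragments (102 to 147) over a scaled input of 29.7, or an enrichment of 4.04-fold. On Scaffold1117 the peak at 1885 to 2004 had 60 fragments over 10.9, and on Scaffold468 the peak at 532907 to 533360 had 46 over 6.86. The peak on Scaffold770 at 425405 to 425587 had 36 fragments over 3.95, and that on Scaffold36 at 509060 to 509262 had 34 over 3.46, with fold enrichments of 7.47 and 7.85.

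Elsewhere the enrichment was lower. The 5 scaffolds with the 10 most significant peaks of the whole sea urchin list contributed 7 of the 627 peaks, and without them the highest fold enrichment was 8.84. That peak lay on Scaffold219 at 267851 to 268214, with 23 fragments (14.6 to 34.5) over a scaled input of 1.72. The next were on Scaffold224 at 328958 to 329168, with 24 fragments over 1.87, and on Scaffold1035 at 264880 to 264981, with 27 over 2.29. These 3 were picked after their values were seen. The median fold enrichment of the remaining 620 peaks was 4.06 and their median width 148 bp.

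The widest loosely spaced peak was the one on Scaffold5086 at 9808 to 12533, 2726 bp long, with its summit 2392 bp from the next. Widths of 500 bp or more were found at 20 of the 627 peaks (3.19%), at 10 of the 1930 widely spaced peaks (0.518%) and at 19 of the 592 with a summit within 1000 bp (3.21%). After the peak of 2533 bp on Scaffold5086 at 52489 to 55021 came Scaffold518 at 512935 to 514416, with 1482 bp and 111 fragments over a scaled input of 38.9. On Scaffold25, 2 neighbours 4078 bp apart were both wide, 699 bp at 657609 to 658307 and 693 bp at 661790 to 662482, with 33 and 38 fragments. For wide peaks the distance between summits is larger than the gap between the intervals. The nearest interval edge was at most 1000 bp away for 74 of the 627 peaks (11.8%).

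In the sea star, the same distances chose 1741 of 13977 peaks (12.5%). Their median fold enrichment was 6.14 (6.06 to 6.26), against 6.22 (6.16 to 6.30) for the 9745 sea star peaks with no summit within 5000 bp. Their median width was 94 bp (93 to 96), and that of the 9745 was also 94 bp (94 to 95). Both had a median of 26 fragments, so the larger width and fragment number of loosely spaced sea urchin peaks had no counterpart in these medians. The median scaled input was higher at the loosely spaced sea star peaks, 3.33 against 3.08 fragments. The 2491 sea star peaks with a summit within 1000 bp had medians of 31 fragments, 97 bp (96 to 98) and a fold enrichment of 5.67. The sea star peaks formed 899 groups, of which 641 (71.3%) had 2 summits, against 56.0% in the sea urchin. The lists come from different species, antibodies, stages, assemblies and limits of significance, and the difference between them was not tested.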

How the data were processed

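ChIP-seq peaks of 1 sea urchin Tbr library against its input were analysed, and the sea star list for 1 comparison. Per the labels' protocols, embryos were fixed in 1% formaldehyde for 10 minutes, chromatin was cut with micrococcal nuclease, and 50 µg of chromatin met 10 µg of antibody. The submitters' processing notes name MACS2 2.1.0, Bowtie2 2.2.2, SAMtools 0.1.19 and CASAVA 1.8, without roles. The sources used here give no genome build, setting or threshold. The deposited values are a fold enrichment (a ratio), −log10 p and −log10 q per peak, and a deposited score, which repeats −log10 q (sea urchin) or −log10 p (sea star) and was not used further. They are the authors' own values. The lowest −log10 q in the sea urchin list was 1.32.

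Positions are 1-based scaffold positions of the authors' build. The reads behind each peak were computed from the deposited fold and p-value: with pileup plus 1 over background plus 1 as the fold, and the upper Poisson tail as p, among whole numbers up to 599, the pileup nearest the deposited −log10 p was taken. It met that value within 0.001 in 100% of peaks, with a largest error of 4.85e-05 in the sea urchin, where the next best pileup missed by at least 0.0109. On data simulated with these same formulas 100% of 3149 pileups were recovered, which checks the search and not the formulas. Scaled inputs were assigned to a window by their steps, 0.572 fragments per input read in a window of 96 bp. The depth per kb rests on the genome size set in the caller. Total reads were not used here. Poisson intervals cover counting error only, as reads carry no molecular identifiers.

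The peaks described and the lists were chosen with earlier results of these data known. Peaks named were the 10 highest by −log10 q, the 5 highest by fold enrichment, the widest, the 3 groups with most such peaks and the 2 nearest to each limit on each side. Any other peak named was picked with its values in view. The planned search for genes and T-box motifs was not run, as no genome of the build was used here. Python 3.11.15, numpy 2.4.6, scipy 1.17.1 and pandas 2.3.3 were used.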

Additional observations from a re-analysis of the deposited data

How the results depend on the processing

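Stricter limits on the peaks, with neighbours found again, changed all the counts, because fewer peaks were left. At a −log10 q of 5 or more, 248 loosely spaced peaks in 115 groups were left (18.3% of the peaks kept), with a median fold enrichment of 4.96, width of 171.5 bp and distance of 1842 bp. At 10 or more, 41 in 19 groups were left (14.9%), with medians of 6.46, 254 bp and 1732 bp and a scaled input of 4.0. At a fold enrichment of 5 or more, 87 in 42 groups were left (11.4%), with medians of 5.96, 196 bp and 1792 bp and a scaled input of 3.43. Merging intervals at most 500 bp apart raised the share to 25.5% and the width to 168 bp, and measuring between interval edges gave a share of 17.9%. An upper limit of 3000 bp gave 14.6% and a median distance of 1626 bp, one of 10000 bp gave 25.8% and 2478 bp, and a lower limit of 500 bp gave 28.0% and 1507.5 bp. Of 70 recomputed values, 41 stayed within the interval of the value reported, or for counts within 1.5 times of it. These include all those without the scaffolds of the 10 highest −log10 q or without peaks over 5 times the genome-wide mean. In all 10 alternatives the median width and the median number of fragments were higher in loosely spaced peaks than in those with no summit within the upper limit. No paired analysis was possible because there is 1 library a group, which also leaves no replicate to drop.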

Other observations

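Scaffold1358 and Scaffold1954 held the most loosely spaced peaks, 14 each of 23 peaks. On Scaffold1358 the 14 lay between 64282 and 263623 and had 14 to 35 ChIP fragments at fold enrichments of 2.88 to 6.19. On Scaffold1954 they lay between 27673 and 130346 and had 15 to 34 fragments at fold enrichments of 2.46 to 6.99. Of the 221 scaffolds with a loosely spaced peak, 122 had 2 of them and 21 had 1.

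The loosely spaced peaks with the most fragments after the one on Scaffold4538 had a high input. The 3 on Scaffold518, between 505942 and 513756, had 97, 111 and 123 fragments, over a scaled input with a median 20.4 times the genome-wide mean. One on Scaffold183 at 210352 to 210825 had 92 fragments over a scaled input of 41.2, or an enrichment of 2.21-fold. A scaled input over 5 times the genome-wide mean was found at 48 of the 627 loosely spaced peaks (7.66%) and at 124 of the 1930 widely spaced ones (6.42%). It was found at 53 of the 592 with a summit within 1000 bp (8.95%) and at 225 of all 3149 peaks (7.15%). The share of the loosely spaced peaks was thus near that of the whole list. Between neighbouring loosely spaced peaks that were both at or under this limit (268 pairs), Spearman's rho was 0.15 for fragments and 0.16 for scaled input. All these peaks and scaffolds were picked after their values were seen.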
